A study of Mus musculus with 8 samples.

Results

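The mitochondrial genome of the mouse is annotated with 37 genes, and all of them carry the prefix mt- in the gene names of the deposited comparison. They were chosen by that prefix from 55536 entries with a gene identifier. They comprise 13 mRNAs, 22 tRNAs (names starting mt-T) and 2 rRNAs (mt-Rnr1 and mt-Rnr2). All lie on the circular chromosome M of mm10, and mt-Nd6 and 8 of the tRNAs are encoded on its minus strand.

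The samples were whole livers of C57BL/6 mice 2 months of age, wild type apart from the virus. In 4 samples an adenovirus had delivered a short hairpin RNA against Eif4ebp3, and in 4 control samples the hairpin was directed against lacZ, a bacterial gene. The virus dose was 0.1 OD in both groups, and all mice were fasted overnight before the liver was taken 1 week after injection. Eif4ebp3 encodes a repressor of cap-dependent translation that binds the initiation factor eIF4E. The labels do not name the promoter of the hairpins, the cell types reached or the sex of the mice. They do not say, beyond the replicate number, that each sample was a separate animal, so p-values measure only the spread between these samples.

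Mitochondrial DNA is transcribed by a dedicated polymerase, POLRMT, with the factors TFAM and TFB2M, into long transcripts of each strand. These are cut mostly at the tRNAs, which leaves separate rRNAs, mRNAs and tRNAs. Every mRNA encodes a core subunit of the respiratory chain or ATP synthase, and hepatocytes, which are rich in mitochondria, depend on them for oxidative phosphorylation.

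The libraries held 24371461 to 32389444 estimated counts. Eif4ebp3 itself had 9.62, 13.9, 37.2 and 19.5 CPM (counts relative to library size, scaled by TMM factors, which centre the bulk of genes) in knockdown livers, against 289.5, 215.6, 204.0 and 49.3 CPM in control livers. The groups did not overlap, although knockdown 3 and control 4 stood closest. The TMM factors were 1.15 to 1.26 in knockdown livers and 0.776 to 0.890 in control livers. Without these factors, the median log2 fold change of all genes moved up by 0.567, so each member is given under both scalings. Under TMM scaling 29.5% of all genes tested rose and 27.8% fell. Beside that background, 9 of 10 macrophage markers rose, with summed levels of 1506 to 1758 CPM in knockdown livers and 589.2 to 787.2 CPM in control livers. Of 10 stellate cell markers 8 rose (567.9 to 975.9 CPM in knockdown livers, 202.2 to 248.3 CPM in control livers). Of 9 tested T and NK cell markers 8 rose and 1 fell (34.2 to 46.4 CPM in knockdown livers, 13.3 to 22.7 CPM in control livers). Of 10 hepatocyte markers 8 fell (63990 to 82400 CPM in knockdown livers, 76820 to 97960 CPM in control livers). The hepatocyte sums overlapped, and Alb, which was not called, held much of them (mean 42110 CPM in knockdown livers, 40860 CPM in control livers). No marker of any list was at 0 in all samples. The part of these shifts in the results on mitochondrial genes was not tested.

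Much of what the deposited counts say about mitochondrial mRNAs depends on copies of mitochondrial DNA that lie in the nuclear genome. A search of the annotated transcripts found 17 nuclear copies of 11 members, at an identity of at least 90% over at least 100 bases. Of these, 6 had more than 100 counts in every sample, and all 6 lay on the minus strand of chromosome 1 between 24612407 and 24616197. The other 11 had at most 10 counts in every sample. The neighbour Gm28439, identical to mt-Nd4 over 876 bases, was listed at 0 in all samples.

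Sequences are shown for mt-Co2 because its copy held the largest share of a pair's counts. The same 60 bases are given from mt-Co2 (chrM:7457-7516, plus strand), from Gm28661 (chr1:24615062-24615121, minus strand) and from Gm13341 (chr2:22587471-22587530, minus strand). Capitals mark the 6 positions at which Gm13341 differs from mt-Co2, and Gm28661 differs at 0.
mt-Co2: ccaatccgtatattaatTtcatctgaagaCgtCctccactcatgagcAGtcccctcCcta
Gm28661: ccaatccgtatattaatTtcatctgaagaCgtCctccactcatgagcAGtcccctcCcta
Gm13341: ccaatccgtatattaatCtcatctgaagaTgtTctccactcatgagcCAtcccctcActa
Counted from the first base of mt-Co2, these differences are T462C, C474T, C477T, A492C, G493A and C501A. Gm28661 matched mt-Co2 at 100% over 681 bases and held 120306 to 183491 counts per sample, whereas Gm13341, at 95.9% identity, held at most 6.16.

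Over their aligned lengths 4 of the 6 counted copies were identical to the member (mt-Co2, mt-Co3, mt-Atp6 and mt-Nd4l), and the other 2 differed by a single base. Those bases, shown in capitals, are A1066T between mt-Co1 and Gm29216 and T3C between mt-Nd3 and Gm28438, counted from the first base of the mitochondrial gene. The stretches come from chrM:6390-6413 and chrM:9459-9481 on the plus strand and from chr1:24616165-24616188 and chr1:24613097-24613119 on the minus strand.
mt-Co1: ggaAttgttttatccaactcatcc
Gm29216: ggaTttgttttatccaactcatcc
mt-Nd3: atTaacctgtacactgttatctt
Gm28438: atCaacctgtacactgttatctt
All sequences are from the transcripts of GENCODE mouse release 21. A read that spans none of the differing bases fits both genes equally well, so which of the members and copies the RNA came from cannot be told from these counts.

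The split between member and copy was uneven across members, and its ranges overlapped between groups for every pair but that of mt-Co1. Of the counts of mt-Co2 and Gm28661 together, Gm28661 held 94.6 to 96.1% in knockdown livers and 94.9 to 95.1% in control livers. Gm28437 held 86.1 to 88.5% of its pair with mt-Co3 in knockdown livers and 83.6 to 88.4% in control livers. For mt-Atp6, Gm10925 held 85.0 to 87.6% in knockdown livers and 82.1 to 85.5% in control livers. These ranges overlapped in all 3 pairs, and so did those of Gm10222 with mt-Nd4l (75.2 to 79.4% in knockdown livers, 72.6 to 78.5% in control livers) and Gm28438 with mt-Nd3 (67.8 to 78.5% in knockdown livers, 69.45 to 79.6% in control livers). Gm29216, which covers 31.3% of mt-Co1, held 3.08 to 3.97% of its pair in knockdown livers and 4.02 to 5.14% in control livers, ranges that did not overlap. The mean share of the copy was higher in knockdown livers for every pair but that of mt-Co1. Under TMM scaling mt-Atp6 fell by 1.07 and Gm10925 by 0.74 on the log2 scale. The other way round, mt-Co1 fell by 0.75 and Gm29216 by 1.05.

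**Figure D1:**
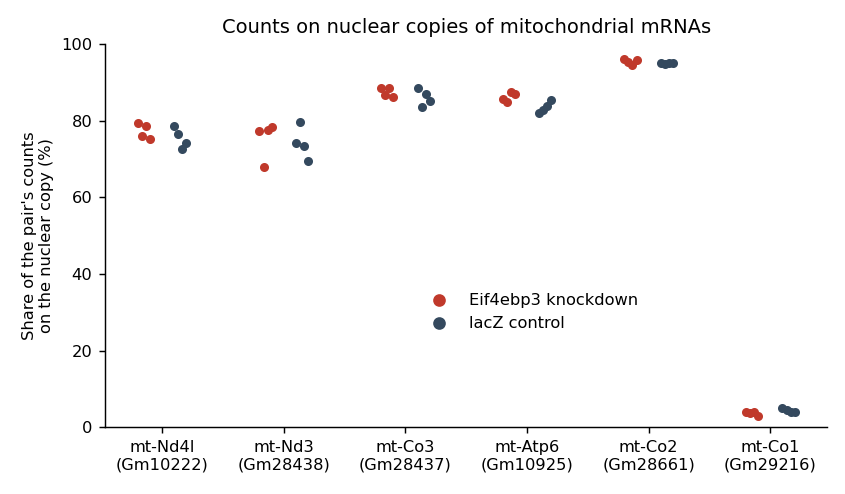
Share of the counts of each pair of mitochondrial mRNA and nuclear copy that the deposited table assigns to the copy (vertical axis, percent), 1 point per sample, knockdown left of control. The copies of mt-Co2, mt-Co3, mt-Atp6, mt-Nd4l and mt-Nd3 hold 67.8 to 96.1%, that of mt-Co1 at most 5.14%.

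Adding the copies back changed levels far more than folds. The mean level of mt-Co2 was 21.7 times the deposited one in knockdown livers and 20.1 times in control livers. For mt-Co3 it was 7.96 times in knockdown livers and 7.14 times in control livers, and for mt-Atp6 7.34 times in knockdown livers and 6.07 times in control livers. The mean level of mt-Nd4l was 4.38 times the deposited one in knockdown livers and 4.08 times in control livers, and that of mt-Nd3 4.14 times in knockdown livers and 3.86 times in control livers. Values below are as deposited unless they are said to have the copies added.

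All 13 mitochondrial mRNAs fell in knockdown livers relative to the bulk of genes (edgeR's quasi-likelihood test, Benjamini-Hochberg adjusted p under 0.05, TMM scaling), and no sample of one group overlapped the other for any of them. Their log2 fold changes ran from -1.20 for mt-Nd4l to -0.56 for mt-Nd1, with a median of -0.93, while the median over all 15375 genes tested was -0.0032. Among all genes 27.8% fell, and 52.1% had groups that did not overlap. With the copies added, 13 fell again and the median was -0.92.

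Under total-count scaling 8 of the 13 mRNAs fell, 0 rose and 5 were not called, with a median of -0.37, while the median gene stood at 0.564. Among all genes 7.72% fell under that scaling. The groups did not overlap for 6 of the 13, beside 64.7% of all genes. The change of scaling moved all genes by nearly the same amount, so it left the distance of the mRNAs from the median gene as it was and is no second test of it. The 5 not called were mt-Nd1, mt-Nd3 and the 3 mRNAs of complex IV. With the copies added, mt-Atp6 was not called either, which left 7, beside 7.70% of all genes. In bulk tissue, fewer cells rich in mitochondria and less mitochondrial RNA per cell cannot be told apart.

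**Figure D2:**
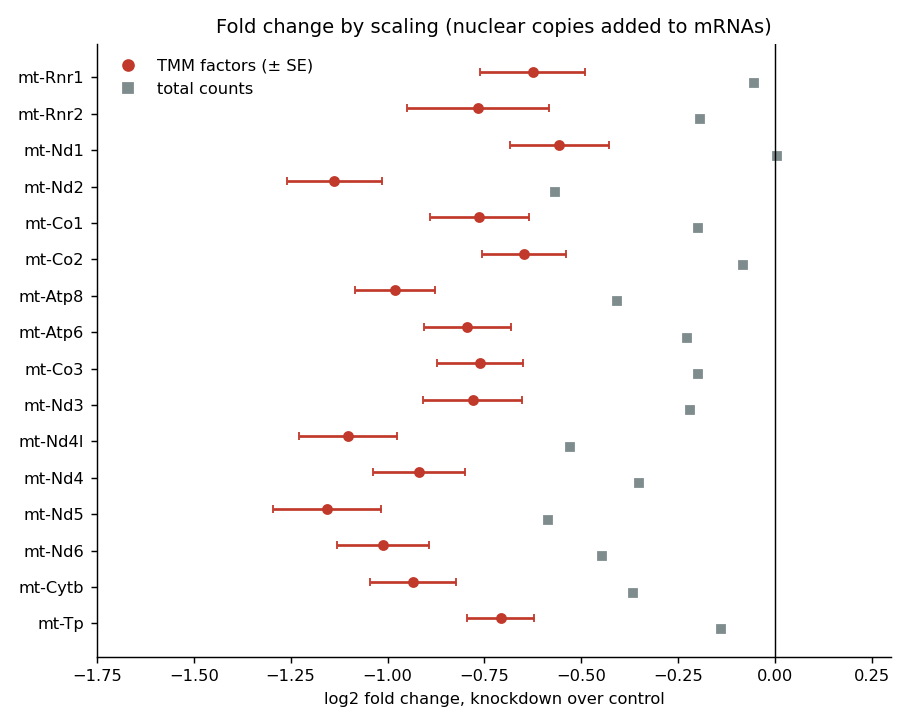
Log2 fold change of knockdown over control (horizontal axis) for each tested mitochondrial gene, with the copies added for mRNAs, under TMM scaling (circles, bars ± SE) and under total-count scaling (squares). All TMM values lie between -1.16 and -0.56, and the total-count values lie to their right, with mt-Nd1 at 0.01.

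The share of each library's counts on identified genes that the 13 mRNAs held uses no scaling factor, as under total counts, so it is no separate test. It was 3.89, 3.91, 3.78 and 4.74% in knockdown livers, against 4.86, 4.96, 4.66 and 5.69% in control livers. The means were 4.08 ± 0.446% in knockdown livers and 5.04 ± 0.448% in control livers (SD, n = 4 each). The ranges touched through knockdown 4 alone, which lay above control 3. Knockdown 4 and control 4 are the samples whose code carries the letter D, all others carrying C, and each was the highest of its group. Among the samples coded C, 3.78 to 3.91% in knockdown livers lay below 4.66 to 4.96% in control livers, and the letter D had 1 sample a group. The labels do not explain the letter.

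With the counts of the copies added, the share was 5.28, 5.28, 5.20 and 6.35% in knockdown livers, against 6.46, 6.53, 6.16 and 7.51% in control livers. The same sample, knockdown 4, made the ranges overlap. The tRNAs held 0.0204 to 0.0219% in knockdown livers and 0.0216 to 0.0251% in control livers. The 2 rRNAs held 0.0331 to 0.0526% in knockdown livers and 0.0432 to 0.0557% in control livers, and both of these pairs of ranges overlapped.

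**Figure D3:**
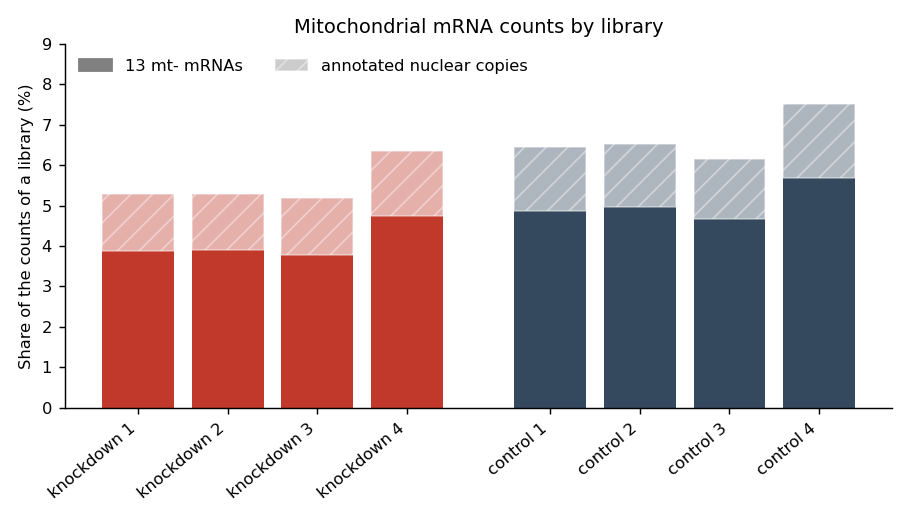
Share of each library's counts held by the mitochondrial mRNAs as deposited and with the nuclear copies added (vertical axis, percent), stacked in 1 bar per sample (solid for the mRNAs, hatched for the copies), knockdown left of control. The sample numbered 4 is the highest in both groups, at 4.74% in knockdown livers and 5.69% in control livers as deposited.

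The rRNAs form the core of the mitochondrial ribosome, mt-Rnr1 (12S) in its small and mt-Rnr2 (16S) in its large subunit. Ribosomal RNA was removed with a Ribo-zero kit before sequencing, so their levels depend on how well that removal worked in each sample. mt-Rnr1 (chrM:70-1024) had 144.5, 165.2, 183.7 and 115.8 CPM in knockdown livers, against 265.9, 244.7, 217.0 and 212.0 CPM in control livers. mt-Rnr2 (chrM:1094-2675) had 203.8, 254.9, 275.1 and 156.5 CPM in knockdown livers, against 449.4, 436.2, 320.2 and 309.0 CPM in control livers. All knockdown samples were below all control samples for both genes, and knockdown 4 was the lowest for both, unlike its place among the mRNAs.

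Both rRNAs fell under TMM scaling, mt-Rnr1 by 0.63 ± 0.14 on the log2 scale (SE; edgeR's quasi-likelihood test, adjusted p = 0.00237) and mt-Rnr2 by 0.77 ± 0.18 (adjusted p = 0.00434). Under total counts neither was called, at -0.06 and -0.19. Per library, the ratio of mt-Rnr2 to mt-Rnr1 counts was 1.41, 1.544, 1.498 and 1.351 in knockdown livers, against 1.69, 1.78, 1.48 and 1.46 in control livers. It differed by -0.14 on the log2 scale (exact two-sided permutation test, p = 0.2, 0.25 after adjustment over the 5 ratios tested), with overlapping groups.

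The tRNAs carry amino acids to the mitochondrial ribosome and, at 59 to 75 bases, are shorter than most RNA-seq fragments. Of the 22, 20 were listed at 0 in all 8 samples. A count of 0 allows an unscaled level of up to 0.0926 to 0.123 CPM, depending on the library (3 counts, counting error only), and whether short RNA was lost before sequencing or in counting was not tested. The 2 tRNAs with counts, mt-Tp for proline and mt-Tq for glutamine, are both encoded on the minus strand. mt-Tq shares 3 bases with mt-Ti of the other strand. Their gene sequences are shown with the anticodon in capitals, mt-Tp from chrM:15356-15422 and mt-Tq from chrM:3772-3842.
mt-Tp: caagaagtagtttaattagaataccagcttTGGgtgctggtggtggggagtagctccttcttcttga
mt-Tq: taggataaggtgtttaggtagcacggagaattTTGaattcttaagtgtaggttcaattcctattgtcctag
No source used here says whether the counting used strand, so reads of the opposite strand cannot be set apart.

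mt-Tp, the only tRNA to pass the filter on low counts, had 161.6, 167.9, 186.3 and 180.0 CPM in knockdown livers, against 323.4, 275.0, 268.4 and 270.0 CPM in control livers. The groups were well apart, and control 1 stood above the other controls. It fell by 0.71 ± 0.09 on the log2 scale (SE; edgeR's quasi-likelihood test, adjusted p = 5.05e-05) and was not called under total counts, at -0.14. mt-Tq had 6.67, 6.68, 3.33 and 7.79 counts in knockdown livers, against 10.1, 11.2, 10.9 and 7.79 counts in control livers, and did not pass the filter on low counts. The highest knockdown count equalled the lowest control count, while on the TMM-scaled CPM scale the groups did not overlap (0.103 to 0.221 CPM in knockdown livers, 0.365 to 0.566 CPM in control livers). Without the filter it was called as fallen, on these few counts.

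Complex I, the NADH dehydrogenase that passes electrons into the chain, has 7 subunits encoded here. All 7 fell under TMM scaling, with a median log2 fold change of -1.01, beside 27.8% of all genes fallen. Under total counts 5 of the 7 fell, with a median of -0.45, beside 7.72% of all genes. mt-Nd2 (chrM:3914-4951) had 2424, 2350, 2295 and 3095 CPM in knockdown livers, against 6004, 5341, 5312 and 5693 CPM in control livers. mt-Nd5 (chrM:11742-13565) had 3155, 3075, 2558 and 3992 CPM in knockdown livers, against 7288, 7131, 6624 and 7427 CPM in control livers. In both genes the highest knockdown sample, knockdown 4, stayed far below the lowest control. mt-Nd2 fell by 1.14 ± 0.12 (SE; edgeR's quasi-likelihood test, adjusted p = 2.18e-05) and mt-Nd5 by 1.16 ± 0.14 (adjusted p = 4.74e-05), and both also fell under total counts, by 0.57 and 0.58.

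mt-Nd1 (chrM:2751-3707), the first mRNA after the rRNAs, changed least of the 13 under both scalings. It had 3188, 3255, 3447 and 4261 CPM in knockdown livers, against 5214, 4819, 4826 and 5949 CPM in control livers. Knockdown 4 came close to the controls without reaching them. It fell by 0.56 ± 0.13 (SE; edgeR's quasi-likelihood test, adjusted p = 0.00347), but under total counts its value was 0.01 and it was not called.

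mt-Nd4l and mt-Nd4 are read from 1 bicistronic RNA and share 7 bases. mt-Nd4 (chrM:10167-11544) had 3626, 3694, 3667 and 4676 CPM in knockdown livers, against 7723, 7362, 6925 and 7601 CPM in control livers. mt-Nd4l (chrM:9877-10173), with its copy added, had 472.4, 411.9, 365.1 and 562.7 CPM in knockdown livers, against 1025, 959.5, 934.0 and 972.3 CPM in control livers. Neither gene's groups overlapped, and knockdown 4 was the highest knockdown sample for both. mt-Nd4 fell by 0.92 ± 0.12 and mt-Nd4l, copy added, by 1.10 ± 0.13 (SE; edgeR's quasi-likelihood test, adjusted p = 7.68e-05 and 3.20e-05), and both fell under total counts too, by 0.35 and 0.53. The ratio of mt-Nd4l to mt-Nd4 differed by -0.31 as deposited and by -0.19 with copies added (exact two-sided permutation test, p = 0.0571 for each, 0.143 after adjustment).

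mt-Nd3 (chrM:9459-9806), with its copy added, had 281.9, 266.9, 355.1 and 396.4 CPM in knockdown livers, against 564.2, 563.3, 505.3 and 600.7 CPM in control livers. mt-Nd6 (chrM:13552-14070), the only mRNA encoded on the minus strand, had 423.5, 447.7, 498.0 and 606.8 CPM in knockdown livers, against 1058, 991.5, 906.2 and 1027 CPM in control livers. Knockdown samples lay below all controls for both. mt-Nd6 fell under both scalings, by 1.01 ± 0.12 (SE; edgeR's quasi-likelihood test, adjusted p = 3.83e-05) and by 0.45 under total counts. mt-Nd3, copy added, fell by 0.78 ± 0.13 under TMM scaling and was not called under total counts, at -0.22.

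mt-Nd6 shares 14 bases with mt-Nd5 on the opposite strand. Per library its ratio to mt-Cytb, the next mRNA on the plus strand, was 0.0913, 0.0927, 0.0948 and 0.106 in knockdown livers, against 0.106, 0.101, 0.0954 and 0.106 in control livers. That is a difference of -0.08 on the log2 scale with overlapping groups (exact two-sided permutation test, p = 0.2, 0.25 after adjustment).

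Complex III, which hands electrons to cytochrome c, has 1 subunit encoded here, cytochrome b. mt-Cytb (chrM:14145-15288) had 4641, 4827, 5252 and 5714 CPM in knockdown livers, against 10010, 9852, 9500 and 9663 CPM in control livers. The control samples lay within a narrow band and every knockdown sample lay well below it. mt-Cytb fell by 0.93 ± 0.11 (SE; edgeR's quasi-likelihood test, adjusted p = 4.33e-05), and by 0.37 under total counts.

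mt-Nd1 and mt-Cytb stand near the start and at the end of the plus-strand genes. The ratio of mt-Nd1 to mt-Cytb counts was 0.687, 0.674, 0.656 and 0.746 in knockdown livers, against 0.521, 0.489, 0.508 and 0.616 in control livers. It was higher in all 4 knockdown samples than in any control sample, by 0.38 on the log2 scale. The exact two-sided permutation test gave p = 0.0286, the smallest that 4 against 4 samples allow, and 0.143 after adjustment over the 5 ratios. A ratio that reaches that smallest p alone cannot pass the adjustment. The adjusted value therefore does not decide whether this ratio changed. Across the 13 mRNAs, copies added, log2 fold change and start position had a Pearson r of -0.45 and a Spearman rho of -0.47, as a description over genes that share the same libraries. The same r was -0.10 for length and 0.14 for GC content. The 13 include mt-Nd6, encoded on the minus strand, whose start is no position along the plus-strand genes.

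Complex IV, cytochrome c oxidase, reduces oxygen to water, and its 3 mitochondrially encoded subunits fell under TMM scaling but not under total counts, where 0 of 3 were called. mt-Co1 (chrM:5328-6872), copy added, had 12430, 12680, 14300 and 15360 CPM in knockdown livers, against 23610, 22970, 21990 and 24410 CPM in control livers. mt-Co2 (chrM:7013-7696), copy added, had 4091, 4138, 4480 and 4916 CPM in knockdown livers, against 7115, 6703, 6519 and 7266 CPM in control livers. mt-Co3 (chrM:8607-9390), copy added, had 3950, 3998, 4683 and 4693 CPM in knockdown livers, against 7462, 7267, 6948 and 7693 CPM in control livers. All 3 showed the same picture, with every knockdown sample below every control sample.

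With copies added, mt-Co1 fell by 0.76 ± 0.13, mt-Co2 by 0.65 ± 0.11 and mt-Co3 by 0.76 ± 0.11 (SE; edgeR's quasi-likelihood test, adjusted p = 0.000439, 0.000443 and 0.000165). Their total-count values were -0.20, -0.08 and -0.20. As deposited, mt-Co2 had only 159.8, 199.2, 243.3 and 208.4 CPM in knockdown livers, against 347.2, 342.9, 325.9 and 357.5 CPM in control livers, and a log2 fold change of -0.76.

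Complex V, the ATP synthase, has 2 subunits encoded here, whose genes overlap by 43 bases. The overlap, chrM:7927-7969, is shown in capitals with 10 bases on either side, because reads within it fit both genes.
mt-Atp8/mt-Atp6: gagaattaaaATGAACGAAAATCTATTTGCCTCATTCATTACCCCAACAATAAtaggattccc
mt-Atp8 (chrM:7766-7969) had 184.0, 165.9, 150.0 and 210.3 CPM in knockdown livers, against 362.8, 351.1, 339.6 and 348.2 CPM in control livers. mt-Atp6 (chrM:7927-8607), copy added, had 2893, 3068, 3324 and 3766 CPM in knockdown livers, against 5869, 5603, 5349 and 5806 CPM in control livers. Neither pair of groups overlapped.

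mt-Atp8 fell by 0.98 ± 0.10 (SE; edgeR's quasi-likelihood test, adjusted p = 1.72e-05), and by 0.41 under total counts. mt-Atp6 fell by 1.07 as deposited and by 0.79 with its copy added under TMM scaling; under total counts it fell by 0.49 as deposited and was not called with its copy added, at -0.23. The ratio of mt-Atp8 to mt-Atp6 differed by 0.07 as deposited and by -0.19 with the copy added (exact two-sided permutation test, p = 0.514 and 0.143, 0.514 and 0.2 after adjustment), so its direction turned with the treatment of the copy.

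**Figure D4:**
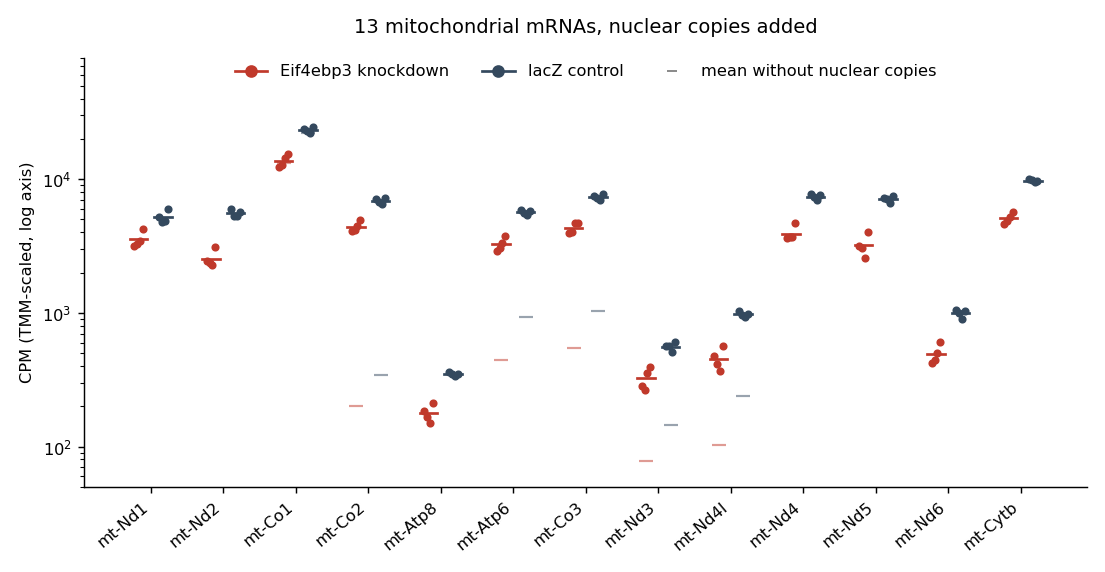
CPM of the 13 mitochondrial mRNAs with nuclear copies added (vertical log axis), 1 point per sample, knockdown left of control, with a line at each mean and a pale line at the mean without copies. The knockdown samples lie below the control samples for every gene, and levels span from 150.0 CPM (mt-Atp8, knockdown 3) to 24410 CPM (mt-Co1, control 4).

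Per kilobase of gene and with copies added, mt-Co1 had the highest level in both groups, 8862 ± 898 CPM per kb in knockdown livers and 15050 ± 662 CPM per kb in control livers (SD, n = 4 each). In knockdown livers it was followed by mt-Co2 (6442), mt-Co3 (5524), mt-Atp6 (4791), mt-Cytb (4465), mt-Nd1 (3696), mt-Nd4 (2841), mt-Nd2 (2447), mt-Nd5 (1752), mt-Nd4l (1525), mt-Nd6 (951.7), mt-Nd3 (934.1) and mt-Atp8 (870.2 CPM per kb). Among these neighbours, ranges did not overlap between mt-Co1 and mt-Co2, mt-Nd2 and mt-Nd5, and mt-Nd4l and mt-Nd6, while the other neighbours did overlap. In control livers the order was mt-Co1, mt-Co2 (10090), mt-Co3 (9365), mt-Cytb (8531), mt-Atp6 (8307), mt-Nd1 (5436), mt-Nd2 (5384), mt-Nd4 (5373), mt-Nd5 (3903), mt-Nd4l (3275), mt-Nd6 (1919), mt-Atp8 (1718) and mt-Nd3 (1605 CPM per kb). There the neighbours that overlapped were mt-Co2 with mt-Co3, mt-Cytb with mt-Atp6, mt-Nd1 with mt-Nd2, mt-Nd2 with mt-Nd4, mt-Nd6 with mt-Atp8 and mt-Atp8 with mt-Nd3.

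As shares of the summed counts of the 13 mRNAs, copies added, which need no scaling between libraries, 3 genes were higher and 5 lower in knockdown livers without overlap, and 5 overlapped. mt-Nd1 held 7.63, 7.68, 7.60 and 8.16% in knockdown livers, against 6.26, 6.03, 6.29 and 7.04% in control livers. mt-Co1 held 30.2 ± 0.936% in knockdown livers and 28.7 ± 0.238% in control livers, and mt-Co2 held 9.71 ± 0.207% in knockdown livers and 8.51 ± 0.0900% in control livers (SD, n = 4 each). The 5 lower ones, mt-Nd2, mt-Nd4l, mt-Nd4, mt-Nd5 and mt-Nd6, all encode complex I subunits, as do 7 of the 13 mRNAs. The remaining complex I genes did not follow, as mt-Nd1 was among the 3 higher and mt-Nd3 overlapped. mt-Nd5 held 7.55, 7.26, 5.64 and 7.64% in knockdown livers, against 8.75, 8.92, 8.64 and 8.80% in control livers, with knockdown 3 lowest. mt-Nd2 held 5.58 ± 0.384% in knockdown livers and 6.89 ± 0.236% in control livers. As deposited, 2 were higher, 3 lower and 8 overlapped. Shares of 1 sum are tied to each other, so a higher share of one gene lowers the others.

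The nuclear genome encodes the machinery that makes and uses these RNAs. It is part of 9 lists of nuclear genes, which also cover biogenesis regulators, mitophagy, and membrane, import and matrix genes. The 9 lists hold 142 distinct genes, all tested. Of these, 10 rose and 71 fell under TMM scaling, with a median log2 fold change of -0.27, but 76 rose and 7 fell under total counts, with a median of 0.29. Among all genes, 29.5% rose and 27.8% fell under TMM scaling, and 63.9% rose and 7.72% fell under total counts. The turn of sign is the shift common to all genes, and the distance of the lists' median from the median gene is nearly the same under both scalings by construction.

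Of 9 genes of mitochondrial transcription 5 fell and 0 rose under TMM scaling, against 1 fallen and 2 risen under total counts. Fallen genes were 55.6% of the list under TMM scaling, beside 27.8% of all genes. Risen genes were 22.2% under total counts, beside 63.9% of all genes. Tfb2m, the factor that opens the promoter, had 21.1 ± 0.937 CPM in knockdown livers and 38.3 ± 0.616 CPM in control livers (SD, n = 4 each) and fell under both scalings, by 0.86 and 0.29. Polrmt, the RNA polymerase, had 34.8 ± 2.52 CPM in knockdown livers and 44.2 ± 2.63 CPM in control livers; it fell by 0.34 under TMM scaling but rose by 0.22 under total counts. Tfam, which packages the DNA and starts transcription, had 42.7 ± 2.56 CPM in knockdown livers and 43.8 ± 4.02 CPM in control livers, was not called under TMM scaling (-0.04; edgeR's quasi-likelihood test, adjusted p = 0.729) and rose by 0.53 under total counts.

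Of 21 genes of mitochondrial RNA processing and stability 9 fell and 1 rose under TMM scaling (2 and 13 under total counts). The 9 are 42.9% of the list, beside 27.8% of all genes, and the 13 are 61.9%, near the 63.9% of all genes. Hsd17b10, a subunit of the RNase that cuts tRNA 5′ ends, had 112.7 ± 21.2 CPM in knockdown livers and 348.6 ± 65.7 CPM in control livers and fell under both scalings, by 1.63 and 1.06. Fastkd1, an RNA-binding protein of mitochondria, fell by 0.96 and, under total counts, by 0.39. Lrpprc, which keeps mitochondrial mRNAs stable, had 119.9 ± 1.47 CPM in knockdown livers and 175.2 ± 15.8 CPM in control livers; it fell by 0.55 under TMM scaling and stood at 0.03, not called, under total counts. Grsf1, an RNA granule protein, fell by 0.64 under TMM scaling and was not called under total counts, at -0.08.

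Of 18 genes of DNA replication and maintenance 5 rose and 9 fell under TMM scaling (10 and 1 under total counts). The 5 are 27.8% of the list, near the 29.5% of all genes that rose, and the 9 are 50%, beside 27.8% of all genes. Polg2, the accessory subunit of the DNA polymerase, fell by 1.12, to 6.16 ± 1.14 CPM in knockdown livers against 13.4 ± 0.495 CPM in control livers, and by 0.56 under total counts. Of 12 translation factors 9 fell and 0 rose under TMM scaling (0 and 2 under total counts). Fallen genes were 75% of the list under TMM scaling, beside 27.8% of all genes. Risen genes were 16.7% under total counts, beside 63.9% of all genes. The elongation factor gene Gfm1 fell by 0.71 under TMM scaling and was not called under total counts, at -0.14. Of 18 genes of rRNA modification and ribosome assembly 1 rose and 5 fell under TMM scaling (12 and 0 under total counts). The 5 are 27.8% of the list, the same share as among all genes, and the 12 are 66.7%, near the 63.9% of all genes. The riser was Rpusd4, a pseudouridine synthase, at 8.34 ± 1.17 CPM in knockdown livers and 4.67 ± 0.624 CPM in control livers, which rose by 0.84 and, under total counts, by 1.40. Of 20 tRNA-modifying genes 8 fell and 0 rose under TMM scaling (0 and 13 under total counts). The 8 are 40% of the list, beside 27.8% of all genes, and the 13 are 65%, near the 63.9% of all genes.

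Of 11 regulators of mitochondrial biogenesis 5 fell and 1 rose under TMM scaling (1 and 7 under total counts). The 5 are 45.5% of the list, beside 27.8% of all genes, and the 7 are 63.6%, near the 63.9% of all genes. Ppargc1a, the coactivator PGC-1α, known to be induced in the fasted liver, had 11.1 ± 3.08 CPM in knockdown livers and 34.6 ± 17.7 CPM in control livers and fell under both scalings, by 1.64 and 1.06. Of 11 mitophagy genes 6 fell and 1 rose under TMM scaling (1 and 6 under total counts). Fallen genes were 54.5% of the list under TMM scaling, beside 27.8% of all genes. Risen genes were 54.5% under total counts, beside 63.9% of all genes. The receptor gene Bnip3 fell under both scalings, by 1.24 and 0.66, to 140.0 ± 23.3 CPM in knockdown livers against 330.7 ± 52.6 CPM in control livers. Of 22 genes of membranes, import and matrix 15 fell and 1 rose under TMM scaling (1 and 11 under total counts). Here the fallen genes were 68.2% of the list under TMM scaling, beside 27.8% of all genes. The risen ones were 50% under total counts, beside 63.9% of all genes. Mfn2, the outer-membrane fusion GTPase, fell under both, by 0.74 and 0.17.

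**Figure D5:**
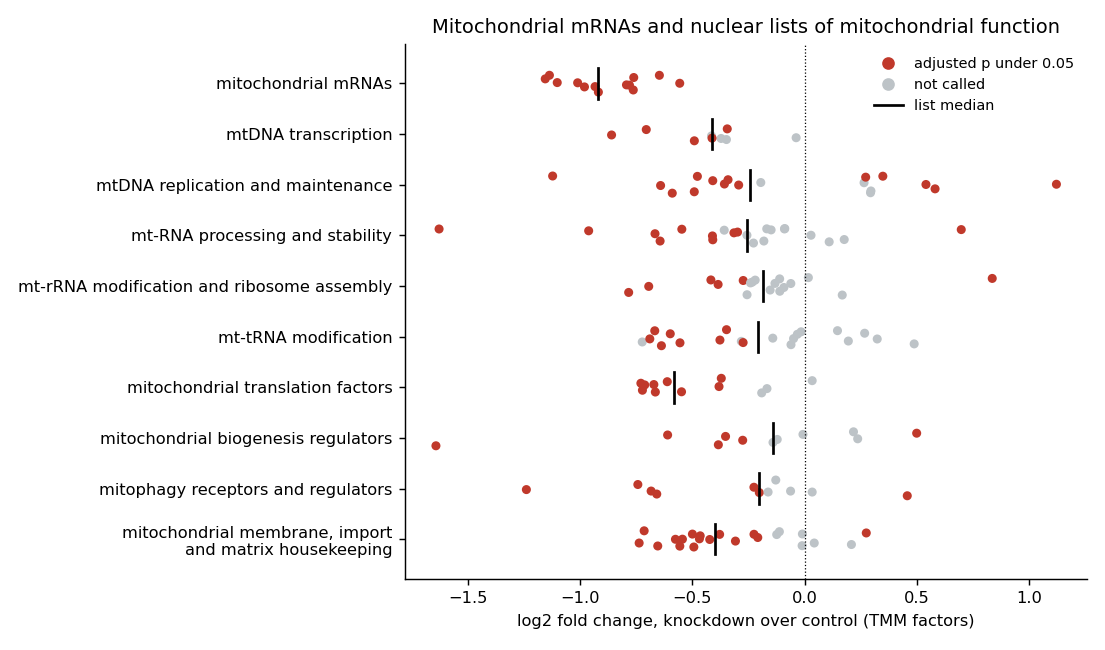
Log2 fold change of knockdown over control under TMM factors (horizontal axis) for the 13 mRNAs with copies added (top row) and each gene of the 9 nuclear lists (other rows), with colour for an adjusted p under 0.05 and a bar at the list median. The medians of the nuclear lists lie between -0.58 for translation factors and -0.14 for biogenesis regulators.

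In the authors' deposited table, all 13 mRNAs have negative log2 fold changes, between -1.19 and -0.55, and the highest adjusted p of the 13 is 8.35e-06. The authors' deposited table marks 5 of them, mt-Nd2, mt-Atp6, mt-Nd4l, mt-Nd5 and mt-Nd6, as significantly lower. It marks 2.17% of all 55536 entries, including entries without counts, so this share is not comparable with those over the 15375 genes tested. The 5 marked are the mRNAs with the lowest log2 fold changes. The mark did not follow the adjusted p alone. mt-Cytb, at -0.93, is not marked although its adjusted p in that table, 7.71e-30, is the lowest of the 13. The authors' deposited table also marks mt-Tq, which rests on 3.33 to 11.2 counts per sample.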

How the data were processed

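Liver RNA of 4 knockdown and 4 control samples was sequenced after removal of ribosomal RNA, per the labels' protocols. The submitters' processing notes name mm10, SAMtools 1.9, GATK 3.8, Bowtie2 2.2.9 and fastp 0.19.5; no source used here gives their roles, the annotation or the strandedness. The values the authors deposited per gene are expected counts, not normalised; 10.9% were not whole numbers and were rounded for tests. The authors also deposited a comparison table with a fold (ratio), its log2 value, a p-value and an adjusted p-value per gene, as deposited. Assembled loci without a gene identifier (645 of 56181 entries, 0.676 to 1.08% of the counts of a sample) were left out.

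Counts were fitted with edgeR 4.0.16 (R 4.3.3): filterByExpr, TMM factors, glmQLFit and glmQLFTest on all 8 samples without covariates, with Benjamini-Hochberg adjustment over 15375 genes and a threshold of 0.05. The SE is the absolute log2 fold change divided by the root of F. The fit was also run on simulated data with 200 changed genes, which does not test its assumptions on these data. Copies were found with blastn 2.17.0 among GENCODE transcripts. Pair ratios were compared with exact permutation tests (70 arrangements). No samples of 1 group agreed within sampling noise (chi-square over degrees of freedom at least 8.94).

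The text names all mt- genes, Eif4ebp3, nuclear copies with counts, and examples from up to 4 members per list with the smallest p among those called, plus Tfam, Polrmt, Lrpprc and Ppargc1a. The members, lists and rule were chosen with earlier results of these data known. The 9 lists hold 143 symbols beside 72 cell type markers, of which 1 symbol was not matched. Endothelial (1 rose, 2 fell of 10 tested), cholangiocyte (3 and 1 of 6), B cell (1 and 0 of 4), neutrophil (1 and 0 of 5) and erythroid (1 and 1 of 5) markers completed the cell type lists. Alternatives were RLE, upper-quartile and total-count scaling, other filters, DESeq2 1.42.0, limma-voom 3.58.1, a minimum fold, covariates, added copies and left-out samples.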

Additional observations from a re-analysis of the deposited data

Results flagged for a closer look

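In 16 of 214 groups of 4 values, 1 sample stood far from the other 3 by Dixon's criterion. Chance flags about 1 in 20 groups, and many of these values come from the same libraries. Knockdown 4 stood above the other knockdown livers for mt-Nd2 (3095 CPM, the others 2295 to 2424 CPM) and mt-Nd4 (4676 CPM, the others 3626 to 3694 CPM), with or without copies added. The same held for its share of counts on mitochondrial mRNAs (4.742%, with copies 6.35%), for the share of mt-Nd1 among the mRNAs (8.156%), and for Gabpa (48.56 CPM). Knockdown 3 stood above its group for Gm29216 (568.2 CPM), Mfn2 (141.3 CPM), Polrmt (38.55 CPM) and Trmt2b (27.24 CPM). Knockdown 2 had the lowest share of counts of mt-Nd3 on Gm28438 (67.84%). Among the controls, control 1 stood out for mt-Tp (323.4 CPM), control 3 for Taco1 (30.88 CPM) and control 2, on the low side, for Tfam (37.82 CPM). No explanation was tested for any of these.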

How the results depend on the processing

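Scaling decided most. Under total counts alone 9831 genes rose and 1187 fell, 8 mRNAs, 0 tRNAs and 0 rRNAs fell, and of the 9 lists 76 rose and 7 fell. Under total counts the sign turned for mt-Nd1 (0.0058), Mterf4 (0.15), Polrmt (0.22), Lig3 (0.0827), Ssbp1 (0.16), Lrpprc (0.0255), Tfb1m (0.16), Trmt2b (0.19), Gabpa (0.19), Yy1 (0.22) and Tfam (0.53), and for Tfam also with upper-quartile factors (0.0382). A minimum fold of 1.5 left 2399 genes risen and 1322 fallen, 10 mRNAs fallen, 0 tRNAs, 0 rRNAs, and 1 list gene risen and 7 fallen. With no filter 2 tRNAs fell. Added copies gave shares of 5.53% in knockdown livers and 6.67% in control livers and turned mt-Atp8 over mt-Atp6 (-0.19); the cause was not tested.

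The other alternatives changed no call among the 54 genes named by the rule, including samples coded C alone and copies left out of the factors, which were added after seeing the data. With each sample left out in turn, 13 mRNAs fell each time, and 3764 to 4493 genes fell and 4091 to 4811 rose. A replicate block left 4415 risen and 4067 fallen genes, and 13 mRNAs. Deviations of same-numbered samples correlated at -0.196, -0.0309, 0.0632 and 0.179 for replicates 1 to 4. Only for replicate 4 was the same-numbered sample the best match. With 4 pairs, these values do not settle whether the numbers pair the samples. For the pair ratios the replicate block's sign-flip test has too few pairs to pass the threshold whatever the data, so it says nothing about them.

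Why 20 tRNAs are listed at 0 was not tested, and the counts do not tell mt- genes from their identical copies.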
